A study of Mus musculus with 27 samples.

Results

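The response of the mouse uterus to estradiol 24 h after injection was compared between (B6 × C3H)F1 hybrids and C57BL/6 (B6) mice. For each gene, the change after estradiol in F1 was set against the change after estradiol in B6, so the quantity of interest is the difference between the strains' responses. It uses 12 of the 27 arrays of the series, 3 in each of 4 groups: F1 given estradiol, F1 given vehicle, B6 given estradiol and B6 given vehicle. Females were 8 weeks old and had their ovaries removed, then rested for 1 to 2 weeks. They were injected intraperitoneally with 17β-estradiol (E2, the chief estrogen of the ovary), at 40.0 µg for each kg of animal, or with the vehicle alone, which was 0.1 ml saline holding 0.25% ethanol. The F1 animals came from a C57BL/6 by C3H/HeJ cross and so carried 1 B6 copy of each autosomal gene. RNA of whole uterus was measured on 1-colour Agilent arrays. The labels give no collection time for the vehicle groups, and they leave unsaid which animal an array came from and whether tissue of the 3 animals per group was pooled. The p-values therefore reflect the spread among these samples, which may be technical. A C3H parent group of the same series is given beside a few genes.

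Estradiol acts in the uterus through nuclear estrogen receptors, chiefly estrogen receptor alpha (Esr1). Early after a dose the tissue takes up water and signalling genes rise. By a day later the luminal epithelium replicates its DNA and divides, protein synthesis rises, and the epithelium secretes products such as lactoferrin. Removing the ovaries leaves a quiet uterus, against which this response is measured. How strongly the uterus answers estradiol differs among inbred mouse strains, which is the question the study's title addresses.

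A level in what follows is the log2 of an array's processed signal for a gene minus the 75th percentile of that array, so 0 is that percentile and a step of 1 is a factor of 2. The 75th percentile lay between 1211 and 1476 intensity units on the 12 arrays, and 73.3% to 79.0% of spots per array were well above background. Replicate arrays correlated across genes at r = 0.988 to 0.996. The first B6 vehicle array stood apart, with 435 genes more than 1 log2 unit from their group mean, against 79 to 202 genes on the other 11 arrays, so gene lists that move with it are given with and without it. Marker lists of uterine tissue were present in every group: the mean level of 14 myometrial markers lay between 3.31 and 3.86, and that of 12 endometrial stroma markers between 2.80 and 3.11. In whole tissue, fewer cells of a type and less RNA per cell cannot be told apart. H2-Ea, an MHC class II gene that B6 mice do not express, was not well above background on any B6 array. In vehicle uteri it was at least 2.14-fold higher in F1 than in B6, which bears on the strain labels. No slide held arrays of more than 1 of the 4 groups, so slide cannot be told apart from the levels, the responses or their difference.

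The F1 and B6 uteri answered estradiol with largely the same genes, and a small set differed. Several tissue kallikrein genes fell in F1 and rose in B6. Chitinase Chia1 and the alpha-1-antitrypsin genes Serpina1b and Serpina1e rose in F1 and did not pass the test in B6. Several Speer genes fell in both strains and fell less in F1. Genes of the textbook response (Esr1, Pgr, Greb1, Igf1, Ltf, Mki67 and Ccnb1) were not among those with a called difference.

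A gene was called at a limma adjusted p under 0.05 (Benjamini-Hochberg, over all 21861 genes tested). Of these, 488 genes were called for a difference between the strains' responses, which is 2.23% of the genes tested. The F1 response was the more positive for 208 (0.951%) and the more negative for 280 (1.28%). At an unadjusted p under 0.05 there were 3953. The median size of a called difference was 0.57 log2 units, the smallest 0.26 and the largest 5.76. Differences over 1 log2 unit numbered 67 in the positive and 35 in the negative direction. In the estradiol responses themselves, 14977 genes were called in F1 (68.5%) and 14875 in B6 (68.0%), of which 12807 changed in the same direction in both strains and 39 in opposite directions. In F1 31.6% of genes rose and 36.9% fell, and in B6 30.8% rose and 37.2% fell. These responses share no arrays, while each shares all of its arrays with the difference between them. The median response over all genes was -0.04 in F1 and -0.06 in B6.

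The count depended on which arrays were used. Without F1 E2 replicate 1 or 3 it was 244 or 233, and without F1 vehicle replicate 1, 2 or 3 it was 181, 289 or 320. Without B6 E2 replicate 2 or 3 it was 263 or 243, and without B6 vehicle replicate 2 or 3 it was 320 or 319. Leaving out F1 E2 replicate 2, B6 E2 replicate 1 or B6 vehicle replicate 1 gave 372, 544 or 461 calls. In all 12 of these fits 142 of the 488 genes were called with the same sign. The intensity correction also mattered. With normexp background correction of the raw spot means 1 gene was called. Normexp fitted a background mean of -354.5 intensity units on B6 vehicle replicate 2 and -794.4 on F1 vehicle replicate 2. It was under -300 on 5 of the 27 arrays, and the lowest on the others was -64.1. Normexp values here and below rest in part on these fits, and their part in the lost calls was not tested. With no scaling between arrays 167 genes were called, of which 78.4% were more positive in F1, against 42.6% as reported. The added plain subtraction gave 706 calls, 28.6% of them more positive in F1, and median centring gave 375 with 30.1%. The fit of the 12 arrays alone called 76 genes, 60.5% of them more positive in F1. It has fewer degrees of freedom and takes the spread from the 4 compared groups only.

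**Figure D1:**
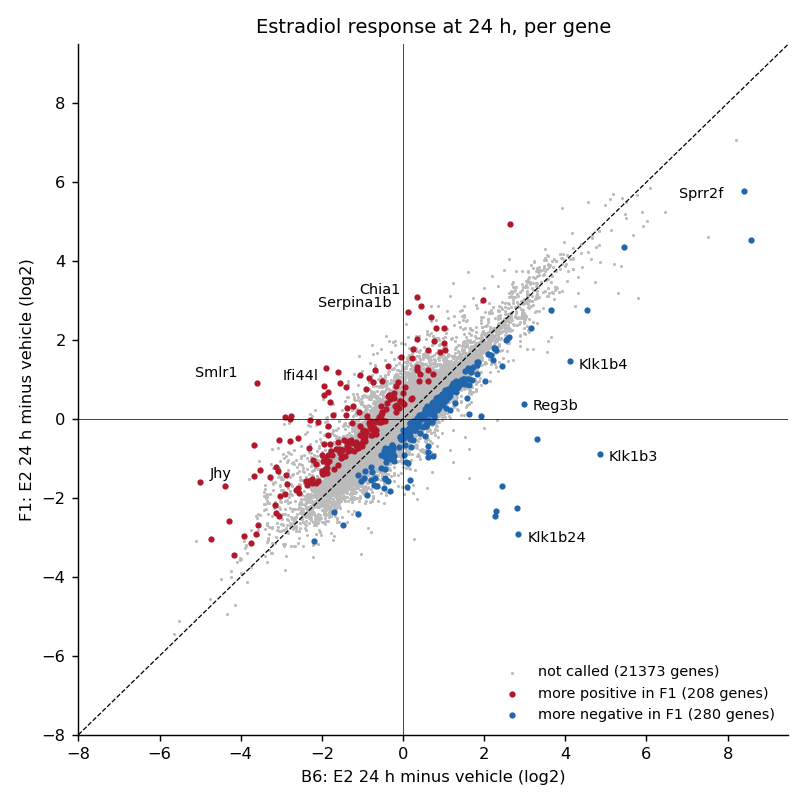
Estradiol response of each of the 21861 genes at 24 h as log2 E2 minus vehicle, F1 on the vertical axis and B6 on the horizontal axis, with the 208 genes called more positive in F1 in red, the 280 called more negative in F1 in blue and all others in grey. Most genes lie along the dashed line of equal response, while Klk1b24 and Klk1b3 lie below it at B6 responses of 2.84 and 4.85.

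Called genes fell into a few shapes. Of the 280 genes with a more negative F1 response, 138 rose in both strains and rose less in F1, 49 rose in B6 alone among the tests passed, 37 fell in F1 alone, 37 fell in both and fell further in F1, and 19 fell in F1 and rose in B6. Of the 208 with a more positive F1 response, 107 fell in both strains and fell less in F1. Another 44 fell in B6 and did not pass in F1, 26 rose in F1 and did not pass in B6, 17 rose in both and 14 rose in F1 and fell in B6. Among all 5771 genes that rose in both strains, 3913 (67.8%) rose less in F1, with a median change of 0.70 in F1 and 0.80 in B6. That share was 46.4% when arrays were not scaled to each other, a setting that turned the median difference of all genes to 0.08 from -0.02. Among the 7036 genes that fell in both, medians were -0.86 in F1 and -0.88 in B6, and 50.9% fell less in F1. The share that fell less in F1 was 68.8% without scaling, 41.3% under median centring and 30.7% under normexp correction. The median difference of all genes was -0.08 under median centring and -0.20 under normexp correction.

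The glandular kallikreins gave the largest differences. These secreted serine proteases are encoded by Klk1, which releases kinins, and by the Klk1b genes, a mouse expansion of close copies in 1 cluster on chromosome 7. Of 11 measured Klk1 and Klk1b genes, 8 had a called difference, all more negative in F1, with a median of -4.15 over the 11 against -0.02 over all genes (2.23% called). In F1 vehicle uteri the 8 called genes were higher than in B6 vehicle uteri, and estradiol lowered 5 of them by 1.71 to 2.92 log2 units (Klk1b24, Klk1b21, Klk1, Klk1b26 and Klk1b27). In B6 vehicle uteri the same 5 genes were low, and they rose after estradiol by 2.27 to 2.84. The members of the family were grouped after their values were seen. The negative direction of all 8 held under every background and scaling alternative run. In the fit of the 12 arrays alone, Klk1b21, Klk1, Klk1b27, Klk1b8 and Klk1b4 lost the call, at limma adjusted p-values of 0.050 to 0.102. Klk1b24, Klk1b3 and Klk1b26 kept it, at 0.039, 0.018 and 0.033. That fit has fewer degrees of freedom and takes the spread from the compared groups alone. What each of these contributed was not tested.

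The probes are close copies as well, so the sequences that tell the genes apart are given here 5′ to 3′ as the files hold them, on the plus strand of mm7, the build in the files. For the probe reported for Klk1b24 (chr7:40366158-40366217), capitals mark the longest run it shares with another kallikrein probe, a run present in those of Klk1b27 and Klk1b11.
Klk1b24: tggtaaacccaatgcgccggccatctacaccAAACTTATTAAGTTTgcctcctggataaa
The probes of Klk1b27 (chr7:40230425-40230484), which had a called difference, and Klk1b11 (chr7:40173583-40173642), which did not, cover the same stretch of their genes. Capitals mark the 6 of 60 positions at which they differ. The Klk1b11 probe was not well above background in all 4 groups.
Klk1b27: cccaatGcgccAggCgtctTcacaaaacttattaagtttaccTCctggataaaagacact
Klk1b11: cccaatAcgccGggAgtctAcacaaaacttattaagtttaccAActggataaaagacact
Klk1 itself was read by a pair of probes. The brighter one, reported below, spans 2056 bases of the genome (chr7:40399353-40401408), and the dimmer one spans 156 bases (chr7:40402636-40402791), so neither is 1 unbroken stretch of the genome. Capitals again mark the longest run shared with another kallikrein probe, which for the dimmer probe is 28 bases shared with Klk1b4 (chr7:40384768-40384923).
Klk1 brighter probe: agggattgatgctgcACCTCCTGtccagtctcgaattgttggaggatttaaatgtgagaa
Klk1 dimmer probe: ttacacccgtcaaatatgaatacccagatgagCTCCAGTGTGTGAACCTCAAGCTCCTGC
Klk1b4: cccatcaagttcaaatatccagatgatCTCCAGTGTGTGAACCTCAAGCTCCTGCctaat

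Klk1b24 had the largest difference of all called genes. Its level was 0.86, -0.12 and -1.59 in F1 E2 uteri and 1.30, 3.18 and 3.45 in F1 vehicle uteri, against -0.98, -1.34 and -1.05 in B6 E2 uteri and -3.91, -4.59 and -3.39 in B6 vehicle uteri. Every F1 E2 array lay below every F1 vehicle array, every B6 E2 array lay above every B6 vehicle array, and the E2 groups overlapped. The response was -2.92 in F1 and 2.84 in B6, a difference of -5.76 ± 0.75 (SE, n = 3 per group, limma adjusted p = 0.000292). Without F1 vehicle replicate 1, the lowest array of its group, the difference was -6.44.

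Klk1b3, which encodes the gamma subunit of the nerve growth factor complex, was the next. Its level was 0.71, 0.23 and -0.44 in F1 E2 uteri and -0.38, 1.66 and 1.85 in F1 vehicle uteri, against 0.72, 0.35 and 0.24 in B6 E2 uteri and -4.21, -4.77 and -4.25 in B6 vehicle uteri. The F1 groups overlapped through vehicle replicate 1, the B6 groups did not overlap, and the E2 groups of both strains lay together. The response was -0.88 in F1 and 4.85 in B6, a difference of -5.72 ± 0.54 (SE, limma adjusted p = 6.05e-06). It was the 1 gene that remained called under normexp correction.

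The brighter Klk1 probe read -0.67, -1.38 and -2.31 in F1 E2 uteri and -0.57, 1.51 and 1.73 in F1 vehicle uteri, against -1.75, -2.14 and -1.82 in B6 E2 uteri and -4.06, -4.46 and -4.03 in B6 vehicle uteri. Its difference was -4.62 ± 0.64 (SE, limma adjusted p = 0.000469). The dimmer Klk1 probe gave another picture: it rose by 4.79 in F1 and 5.82 in B6, a difference of -1.03 ± 0.35 (SE, limma adjusted p = 0.131 over all probes). The Klk1b26 probes disagreed in the same way, with differences of -5.06 and 0.01, the latter on a probe not well above background in all 4 groups. Cross-hybridisation between these copies was not tested, and the named gene is therefore uncertain for every member of the family.

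The other called members shared the low B6 vehicle level. Klk1b21 differed by -4.73, Klk1b27 by -4.15 and Klk1b8 by -3.80, where Klk1b8 rose by 3.30 in B6 and its F1 response of -0.50 did not pass (limma adjusted p = 0.23). Klk1b4, the alpha subunit of the nerve growth factor complex, rose in both strains, by 1.46 in F1 and 4.11 in B6, a difference of -2.65 ± 0.46 (SE, limma adjusted p = 0.00418). Klk1b5, Klk1b11 and Klk1b9 did not have a called difference. Of these, Klk1b11 and Klk1b9 were not well above background in all 4 groups. Klk1b5 was at 2.19, 1.94 and 1.43 in F1 E2 uteri and -2.91, -3.22 and -3.35 in F1 vehicle uteri, against 2.64, 2.20 and 2.16 in B6 E2 uteri and -3.14, -4.38 and -3.54 in B6 vehicle uteri. It thus started from a low level in both strains and rose in both, by 5.01 in F1 and 6.02 in B6 (difference -1.01, limma adjusted p = 0.186).

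The strains differed in the vehicle level of the called kallikreins. Over all genes, 12.6% differed in vehicle level (5.42% higher and 7.17% lower in F1) and 19.2% in the level 24 h after estradiol (7.86% higher and 11.3% lower in F1). In vehicle uteri Klk1b24 was 6.61 log2 units higher in F1 than in B6 (97.4-fold, limma adjusted p = 2.3e-08), and Klk1b3 was 5.45 higher (43.8-fold). At 24 h after estradiol the level differed between the strains by 0.84 for Klk1b24 (limma adjusted p = 0.29) and by -0.27 for Klk1b3 (limma adjusted p = 0.68). In the C3H parent, Klk1b24 was at 1.33, 1.99 and 1.93 in E2 uteri and 4.05, 4.40 and 4.12 in vehicle uteri. The C3H response of Klk1b24 was thus -2.44, near the F1 response, and the difference between the F1 and C3H responses was -0.48 (limma adjusted p = 0.78). For the response 2 h after estradiol, set against the same vehicle arrays, 0.640% of genes differed in response between the strains (0.133% more positive and 0.508% more negative in F1). At that time Klk1b24 had risen by 5.88 in B6, while the F1 change of -0.54 did not pass (limma adjusted p = 0.40).

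**Figure D2:**
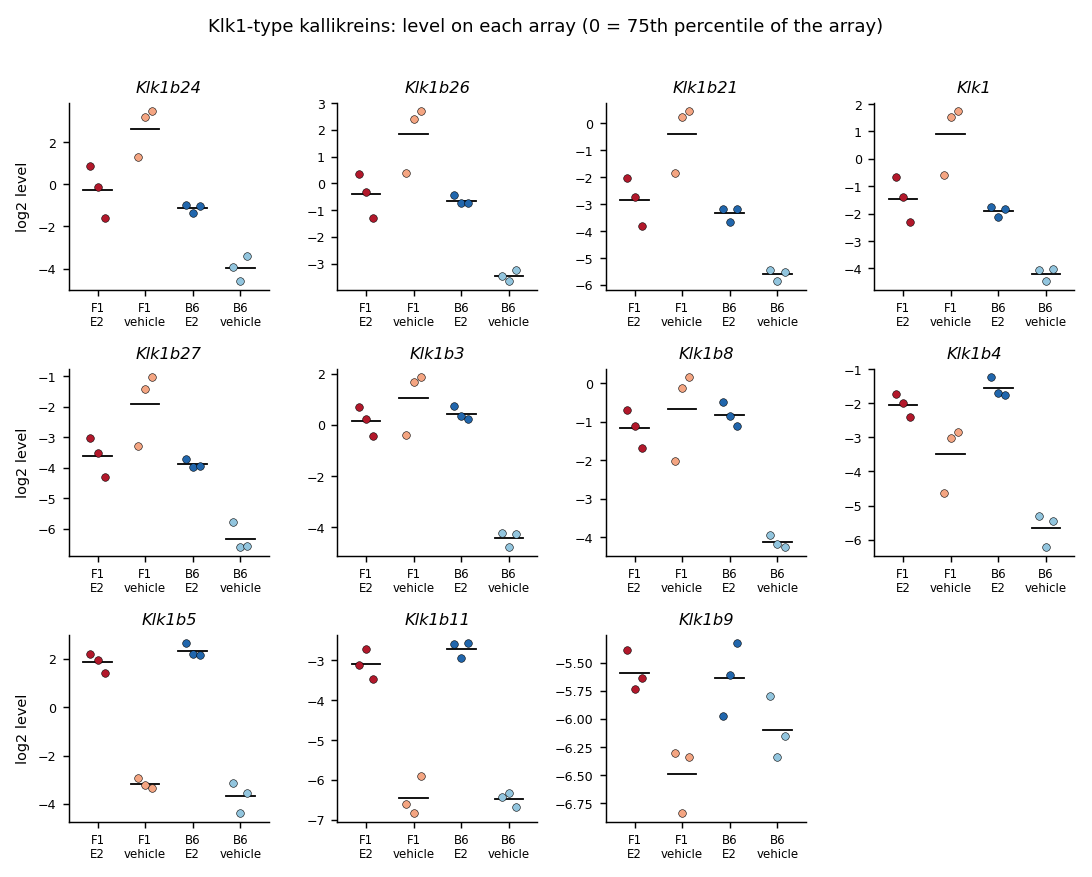
Levels (log2, 0 is the array's 75th percentile) of the 11 Klk1-type kallikreins on each of the 12 arrays, F1 E2, F1 vehicle, B6 E2 and B6 vehicle from left to right, with 1 point per array and a bar at the group mean. Klk1b24 is high in F1 vehicle and low in B6 vehicle uteri with overlapping E2 groups, while Klk1b5 is low in both vehicle groups and rises in both strains.

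The promoters of these genes were read from RefSeq (GRCm38.p6, a B6 genome, the bases just before the gene start), where 14 Klk1-type genes and 340 of the 488 called genes had an entry. Shown are Klk1b24, with opposite responses in the strains, and Klk1b5, which rose in both. Capitals mark the letters GGTCA or, on the other strand, TGACC, the core of the estrogen response element.
Klk1b24 promoter, chr7:44187986-44188235, plus strand: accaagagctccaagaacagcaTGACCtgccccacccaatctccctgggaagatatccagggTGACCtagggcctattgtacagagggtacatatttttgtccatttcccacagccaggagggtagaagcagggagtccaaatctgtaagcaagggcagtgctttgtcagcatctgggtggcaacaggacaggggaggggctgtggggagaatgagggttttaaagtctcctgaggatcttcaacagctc
Klk1b5 promoter, chr7:44216224-44216473, plus strand: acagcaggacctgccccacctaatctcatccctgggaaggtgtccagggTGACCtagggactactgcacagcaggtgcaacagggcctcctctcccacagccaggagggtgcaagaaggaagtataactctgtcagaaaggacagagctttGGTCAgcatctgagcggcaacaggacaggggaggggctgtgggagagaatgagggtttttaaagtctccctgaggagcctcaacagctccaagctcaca
Each holds the core at 2 places. The core, which also lies within the full element, was found on either strand in 38.8% of promoters of called genes, 33.7% of those of tested genes and 34.9% of all 27025 promoters. The full element GGTCANNNTGACC was found in 0 of the 340 called, 6 of 13253 tested and 17 of all promoters, and the androgen response element in 0, 0 and 1. These are matches of letters in a window and say nothing of binding.

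Epithelial and secreted products came next. Sprr2f, a small proline-rich protein of the cornified envelope that estrogen induces, was at 5.98, 5.89 and 6.22 in F1 E2 uteri and 0.09, 0.85 and -0.20 in F1 vehicle uteri, against 5.51, 5.37 and 4.93 in B6 E2 uteri and -3.08, -2.91 and -3.39 in B6 vehicle uteri. Estradiol raised it 55.1-fold in F1 and 337-fold in B6, and no pair of groups overlapped. The difference of -2.61 ± 0.47 (SE, limma adjusted p = 0.00553) stood beside a vehicle level that was 3.37 higher in F1. It was the 1 gene called among 17 measured genes of the cornified envelope and squamous epithelium, of which 13 rose in each strain, against 1.28% of all genes called more negative. The list's median difference of -0.36 turned to 0.03 without F1 E2 replicate 3.

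Chia1, an acidic chitinase, was at -3.19, -2.91 and -2.64 in F1 E2 uteri and -5.69, -6.02 and -6.29 in F1 vehicle uteri, against -3.20, -3.30 and -3.26 in B6 E2 uteri and -3.97, -3.36 and -3.51 in B6 vehicle uteri. The F1 groups stood far apart, and the B6 groups lay close together with all E2 arrays above vehicle. Chia1 rose by 3.08 in F1, and its B6 change of 0.36 did not pass (limma adjusted p = 0.12), a difference of 2.73 ± 0.28 (SE, limma adjusted p = 2.24e-05). The difference was 1.24 with the added plain subtraction (limma adjusted p = 0.000105) and 0.52 under normexp correction (limma adjusted p = 0.97).

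Serpina1b, an alpha-1-antitrypsin, which inhibits serine proteases, was at -0.42, -0.68 and -0.41 in F1 E2 uteri and -3.32, -3.16 and -3.17 in F1 vehicle uteri, against -0.66, -1.30 and -1.50 in B6 E2 uteri and -0.42, -1.93 and -1.50 in B6 vehicle uteri. The F1 groups did not overlap and the B6 groups did. The difference was 2.58 ± 0.47 (SE, limma adjusted p = 0.00602), and 2.15 without B6 vehicle replicate 1. Its copy Serpina1e differed by 2.41 and, named after its values were seen, Serpina1d by 1.88. These genes are close paralogs, so their probes may share signal, which was not tested.

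Among late estrogen-responsive and secretory products, 2 of 20 measured genes were called, both more positive in F1 against 0.951% of all genes. The median difference was 0.24, with a range of 0.08 without B6 E2 replicate 3 to 0.38 without B6 vehicle replicate 2, and 0.11 without B6 vehicle replicate 1. Dmbt1, a secreted mucosal scavenger protein, was at -3.98, -4.29 and -4.16 in F1 E2 uteri and -5.82, -5.84 and -6.01 in F1 vehicle uteri, against -4.96, -5.03 and -5.19 in B6 E2 uteri and -5.47, -5.87 and -5.70 in B6 vehicle uteri. It rose in both strains and further in F1, by 1.74 against 0.62 in B6 (difference 1.12 ± 0.18, SE, limma adjusted p = 0.00189). Gpx3, an extracellular glutathione peroxidase, fell by 0.41 in F1 and by 1.00 in B6. Lactoferrin (Ltf), the classical secreted product, rose by 3.34 in F1 and by 2.75 in B6, a difference of 0.59 that did not pass (limma adjusted p = 0.417). The Dmbt1 difference was -0.04 under normexp correction.

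Krt20, a keratin of surface epithelia, was at -3.33, -4.08 and -3.41 in F1 E2 uteri and -3.50, -3.47 and -3.76 in F1 vehicle uteri, against -4.25, -4.99 and -5.05 in B6 E2 uteri and -2.72, -2.73 and -1.95 in B6 vehicle uteri. It fell by 2.30 in B6, where the groups did not overlap, and not in F1, where they did (-0.03, limma adjusted p = 0.92). The difference was 2.27 ± 0.33 (SE, limma adjusted p = 0.000837). Il20ra, a receptor subunit for interleukins of the IL-20 group, rose by 1.11 in F1 and fell by 1.05 in B6. Its difference of 2.17 was 0.70 with the added plain subtraction (limma adjusted p = 0.070) and 0.22 under normexp correction (limma adjusted p = 0.98).

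Reg3b, an antibacterial lectin of mucosal surfaces, was well above background in B6 E2 uteri alone, on 3 of 3 arrays, and on 0 of 9 arrays of the other groups. In B6 it was at least 1.79-fold higher after estradiol than in vehicle uteri, and 24 h after estradiol it was at least 1.498-fold lower in F1 than in B6. For such a bound, each array of the dimmer group is given the probe's own signal or, if higher, the faintest signal that counted as well above background on it. The fitted difference in response was -2.61 ± 0.28 (SE, limma adjusted p = 2.94e-05). Its size, SE and p rest on values not well above background in all groups but B6 E2. The difference was -0.46 with the added plain subtraction (limma adjusted p = 0.043) and -0.86 under normexp correction (limma adjusted p = 0.97).

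A pair of metabolic genes fell less in F1. Pdk4, which restrains pyruvate oxidation, and Vnn1, a pantetheinase, were picked after their values were seen. Pdk4 fell by 1.04 in F1 and by 2.23 in B6, and Vnn1 fell by 0.62 in F1 and by 1.95 in B6, with limma adjusted p-values for the differences of 0.000915 and 0.000702.

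The Speer genes, copies of a glutamate-rich family described in testis, included 4 that fell less in F1. Speer4d was at -3.43, -3.31 and -3.50 in F1 E2 uteri and -1.73, -2.07 and -2.13 in F1 vehicle uteri, against -5.54, -5.31 and -5.76 in B6 E2 uteri and -1.81, -1.94 and -1.86 in B6 vehicle uteri. The vehicle groups overlapped and the E2 groups did not. The difference was 2.23 ± 0.21 (SE, limma adjusted p = 6.05e-06), and Speer5-ps1 differed by 1.80. Of the 8 Speer genes measured, a family gathered after its values were seen, 4 had a called difference, all more positive in F1 against 0.951% of all genes, and the median was 1.46. Speer2 and Speer9-ps1 differed the other way, by -0.21 and -0.18, and did not pass (limma adjusted p = 0.879 and 0.890). Speer4cos, 1 of the 4 called, differed by 1.69, but its other probe differed by 0.11 (limma adjusted p = 0.926 over all probes). The mean of its probes differed by 0.90 and did not pass (limma adjusted p = 0.154). Speer4cos, Speer8-ps1, Speer9-ps1 and Speer4a had no probe well above background in all 4 groups. The family's median turned to -0.33 under normexp correction and to -0.30 in the added version of it, where the medians of all genes were -0.20 and -0.19. With the added plain subtraction the family's median was 0.22. The size and, under the normexp versions, the direction of the family's median thus depend on how dim signals are corrected.

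**Figure D3:**
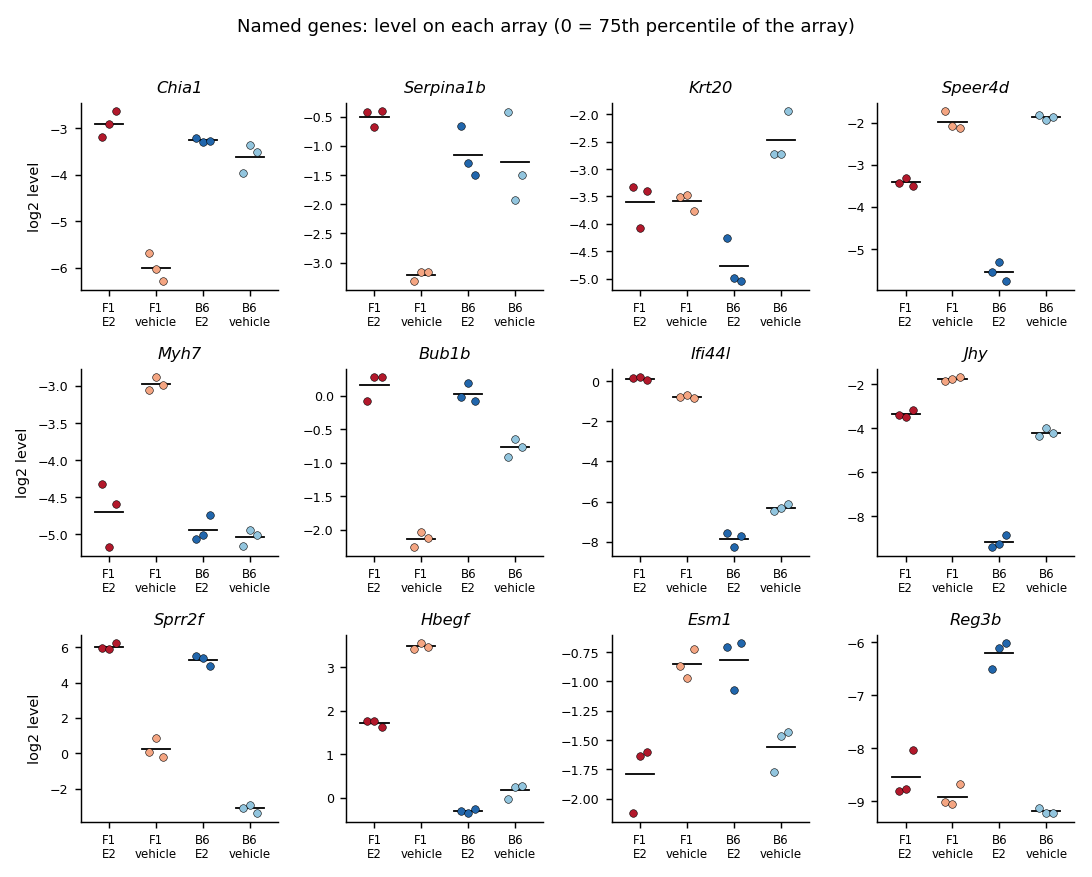
Levels (log2, 0 is the array's 75th percentile) of 12 named genes on each array, F1 E2, F1 vehicle, B6 E2 and B6 vehicle from left to right, with 1 point per array and a bar at the group mean. Chia1 and Serpina1b are low in F1 vehicle uteri alone, Speer4d is lowest in B6 E2 uteri, and Hbegf is higher in both F1 groups than in both B6 groups.

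Some differences lay on top of a large strain difference in level. Ifi44l, an interferon-induced gene, was at 0.15, 0.20 and 0.05 in F1 E2 uteri and -0.80, -0.70 and -0.82 in F1 vehicle uteri, against -7.55, -8.28 and -7.72 in B6 E2 uteri and -6.48, -6.32 and -6.10 in B6 vehicle uteri. The B6 arrays lay far below the F1 arrays in both treatments, and in B6 E2 uteri the probe was not well above background on any array. After estradiol it was at least 136-fold higher in F1 than in B6. It rose by 0.91 in F1 and was at least 1.57-fold lower after estradiol in B6, with a fitted difference in response of 2.46 ± 0.22 (SE, limma adjusted p = 4.05e-06). A sequence difference under the probe between the strains was not tested.

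Jhy, a gene needed for motile cilia of the brain's ventricles, was at -3.39, -3.49 and -3.17 in F1 E2 uteri and -1.86, -1.74 and -1.68 in F1 vehicle uteri, against -9.41, -9.28 and -8.87 in B6 E2 uteri and -4.36, -4.002 and -4.22 in B6 vehicle uteri. No pair of groups overlapped, and in B6 E2 uteri the probe was not well above background. Jhy fell 3.02-fold in F1 and at least 6.76-fold in B6, with a fitted difference of 3.40 ± 0.21 (SE, limma adjusted p = 1.07e-08). That size rests on the dim B6 E2 values, and the direction did not hold when background was handled otherwise: the difference was -0.22 with normexp correction and -0.14 with the added plain subtraction.

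Hbegf, a ligand of the epidermal growth factor receptor, was at 1.78, 1.77 and 1.64 in F1 E2 uteri and 3.42, 3.55 and 3.48 in F1 vehicle uteri, against -0.31, -0.35 and -0.26 in B6 E2 uteri and -0.02, 0.26 and 0.29 in B6 vehicle uteri. It fell in both strains, by 1.76 in F1 and by 0.48 in B6, and stood higher in F1 in both treatments. The difference was -1.28 ± 0.12 (SE, limma adjusted p = 4.05e-06). Myh7, a slow-type myosin heavy chain, and Dnah11, a dynein of motile cilia, had the same shape of a higher F1 vehicle level. Myh7 fell by 1.72 in F1 and changed by 0.10 in B6 (limma adjusted p = 0.67 in B6), and Dnah11 fell by 1.55 in F1 and changed by 0.17 in B6 (limma adjusted p = 0.38 in B6).

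Of 35 growth factor axis genes, 2 were called against 2.23% of all genes, Hbegf in the negative and Igfbp3, an insulin-like growth factor binding protein, in the positive direction. The list median of 0.10 turned to -0.11 under normexp correction, where the median of all genes was -0.20. Igfbp3 fell by 3.15 in F1 and by 3.76 in B6. Of 24 angiogenesis genes, Esm1 and Apln were called, both more negative in F1 against 1.28% of all genes. The list median of -0.02 turned to 0.08 without scaling, where the median of all genes was also 0.08. Esm1, an endothelial proteoglycan, was at -2.12, -1.64 and -1.61 in F1 E2 uteri and -0.87, -0.97 and -0.72 in F1 vehicle uteri, against -0.70, -1.07 and -0.68 in B6 E2 uteri and -1.78, -1.47 and -1.43 in B6 vehicle uteri. It fell in F1 and rose in B6 with no overlap between E2 and vehicle in either strain, a difference of -1.68 ± 0.25 (SE, limma adjusted p = 0.000841). The vasoactive peptide gene Apln rose in both, by 0.42 in F1 and 1.29 in B6.

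Single members were called in other lists too, where 2.23% of all genes were called. Klf4, an epithelial transcription factor, rose by 0.26 in F1 and by 0.86 in B6, and Ptges, which makes prostaglandin E, rose by 0.31 in F1 and by 0.89 in B6. Sox9, a transcription factor of the glands, rose by 1.15 in B6, and its F1 change of 0.22 did not pass (limma adjusted p = 0.26). The matrix protein gene Thbs1 fell by 1.07 in F1 and by 1.82 in B6, and steroid sulfatase (Sts) fell by 1.86 in F1 and fell by 2.57 in B6. Clock, of the circadian oscillator, was called on its brightest probe by a difference of -0.40, but its 4 probes disagreed on the response: that probe changed by -0.23 in F1 and 0.17 in B6, and another by -1.25 in F1 and -0.90 in B6. These single calls were fragile. Without B6 vehicle replicate 1, Sox9, Sts, Thbs1, Ptges, Igfbp3, Clock, Gnl3, Hspb1, Ins2, Ptprt and Serpina1d were no longer called (limma adjusted p = 0.0601 to 0.0862), and of the 12 fits that leave out 1 array each of them was called in at most 4. None of the 22 measured steroid receptors and coregulators had a called difference (limma, 5 at an unadjusted p under 0.05, against 3953 of all 21861 genes), and their median was -0.12.

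The growth machinery rose in both strains. Of 25 ribosome biogenesis genes, 23 rose in F1 and 24 in B6, with medians of 0.65 in F1 and 1.02 in B6. The median difference was -0.34, against -0.02 for all genes, and 2 were called, both more negative in F1 against 1.28% of all genes. Nop56, a core protein of snoRNA particles, was at 4.43, 4.39 and 4.38 in F1 E2 uteri and 4.08, 3.70 and 3.72 in F1 vehicle uteri, against 4.44, 4.56 and 4.55 in B6 E2 uteri and 3.56, 3.42 and 3.38 in B6 vehicle uteri. Its E2 and vehicle groups did not overlap in either strain. The difference of -0.49 ± 0.13 (SE, limma adjusted p = 0.0488) lay close to the threshold, and the other Nop56 probe, at -0.21 in F1 and 0.16 in B6, differed by -0.37 (limma adjusted p = 0.201). Also close to the threshold was the difference of Gnl3, a nucleolar GTPase, at -0.61.

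Of 12 heat shock genes, 3 were called, all more negative in F1 against 1.28% of all genes, and the list median was -0.44. Hspd1, the mitochondrial chaperonin, was at 5.59, 5.63 and 5.56 in F1 E2 uteri and 4.63, 4.61 and 4.52 in F1 vehicle uteri, against 5.77, 5.89 and 6.08 in B6 E2 uteri and 4.42, 4.38 and 4.40 in B6 vehicle uteri. It rose by 1.01 in F1 and by 1.51 in B6, and every F1 E2 array lay below every B6 E2 array (difference -0.50 ± 0.11, SE, limma adjusted p = 0.0215). The other Hspd1 probe rose by 1.27 in F1 and 1.62 in B6, a difference of -0.35 that did not pass (limma adjusted p = 0.200 over all probes). Hspe1, the partner of Hspd1, rose by 1.43 in F1 and by 1.86 in B6. Hspb1, a small heat shock protein, rose by 0.28 in B6, and its F1 change of -0.17 did not pass (limma adjusted p = 0.079). Chaperones of the endoplasmic reticulum (21 genes, 0 called, 7 at an unadjusted p under 0.05) and cholesterol synthesis genes (24 genes, 0 called, 9 at an unadjusted p under 0.05) had medians of -0.29 and -0.32 by limma. Over all 21861 genes, 3953 had an unadjusted limma p under 0.05. All 24 cholesterol synthesis genes rose in both strains, with a median of 1.58 in F1 and 2.04 in B6.

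Genes picked after their values were seen include a pair of polyamine enzymes. Srm, spermidine synthase, rose by 1.49 in F1 and by 2.22 in B6. Amd1, which supplies its co-substrate, rose by 0.76 in B6, and its F1 change of 0.03 did not pass (limma adjusted p = 0.74). Crabp1, which binds retinoic acid, rose by 2.77 in F1 and by 4.53 in B6, and Fkbp11, a prolyl isomerase of the secretory pathway, rose by 2.77 in F1 and by 3.64 in B6. The histone gene H4c9 rose by 1.35 in F1 and by 2.44 in B6. On the probes reported, all 5 differences were more negative in F1 and were called in all 12 fits that leave out 1 array. The other Fkbp11 probe differed by -0.65 ± 0.34 (SE) and did not pass (limma adjusted p = 0.337 over all probes). The other Amd1 probe differed by -0.52 (limma adjusted p = 0.046 over all probes).

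Cell division genes rose in both strains. All 25 mitosis genes rose in F1 and in B6, with medians of 3.34 in F1 and 3.05 in B6, and all 25 DNA replication genes rose in F1 and 24 in B6, with medians of 1.62 in F1 and 1.76 in B6. The median difference was 0.33 for mitosis (near 0 under normexp correction, where that of all genes was -0.20) and -0.17 for replication. The mitosis median was 0.06 without B6 vehicle replicate 1, whose mean mitosis level was -1.71 against -2.17 and -2.43 on the other B6 vehicle arrays. Bub1b, a spindle checkpoint kinase, was the 1 gene called in either list of 25, against 2.23% of all genes. It was at -0.08, 0.28 and 0.28 in F1 E2 uteri and -2.26, -2.03 and -2.13 in F1 vehicle uteri, against -0.02, 0.20 and -0.07 in B6 E2 uteri and -0.91, -0.64 and -0.76 in B6 vehicle uteri. The E2 groups overlapped, the vehicle groups did not, and the difference was 1.49 ± 0.25 (SE, limma adjusted p = 0.0031). The proliferation marker Mki67 rose by 3.21 in F1 and by 2.896 in B6 (limma adjusted p = 0.561 for the difference).

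The genes close to the receptor named here, Esr1, Pgr, Greb1 and Igf1, had no called difference. On its brighter probe Esr1 fell by 0.55 in F1 and by 0.57 in B6, a difference of 0.03 ± 0.19 (SE, limma adjusted p = 0.962). The other Esr1 probe changed by 0.22 in F1 and 0.04 in B6, a difference of 0.18 ± 0.18 (SE, limma adjusted p = 0.632), so the probes disagree on the direction of the response. The progesterone receptor gene Pgr rose by 0.91 in F1 and by 0.99 in B6, a difference of -0.07 ± 0.12 (SE, limma adjusted p = 0.789), and its other probe differed by 0.25 (limma adjusted p = 0.621). Greb1, a direct estrogen target, rose by 0.43 in F1 and by 0.61 in B6, and Igf1, the stromal growth factor, rose by 1.49 in F1 and by 1.89 in B6 (limma adjusted p = 0.529 and 0.122 for the differences). A p above the threshold does not show that the strains responded alike.

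**Figure D4:**
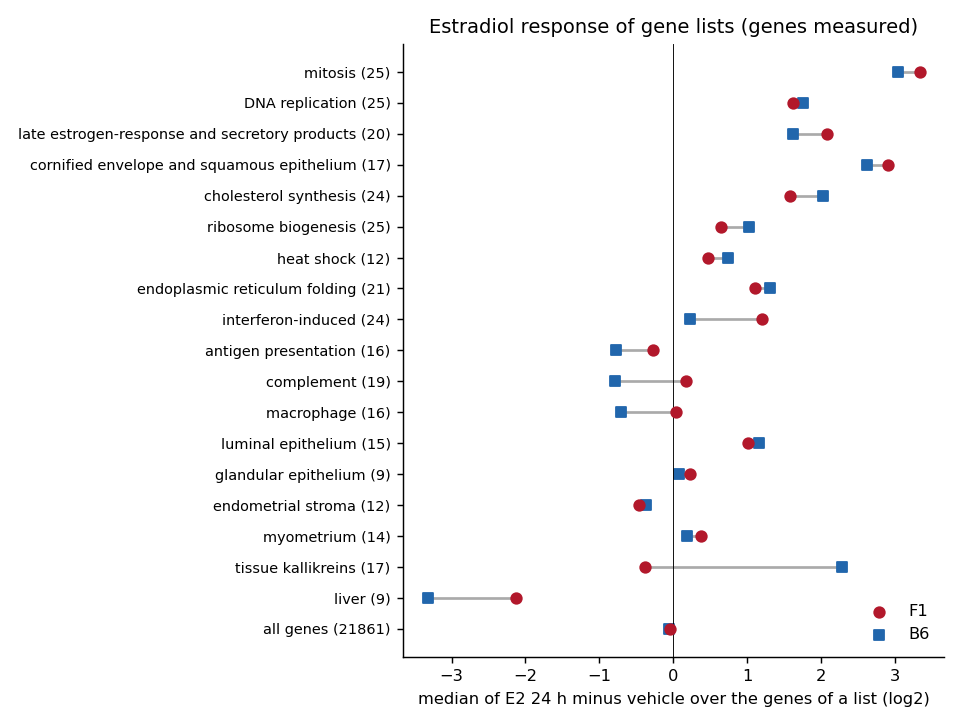
Median estradiol response (log2 E2 minus vehicle at 24 h) of 18 gene lists and of all genes, F1 as red circles and B6 as blue squares, with the number of genes measured in brackets. The tissue kallikreins stand furthest apart, at -0.39 in F1 and 2.28 in B6, while ribosome biogenesis and cholesterol synthesis lie to the left in F1.

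Lists of liver, immune and interferon genes moved with 1 array. For 9 measured liver transcripts, the mean level was -4.37, -5.32 and -4.47 in F1 E2 uteri and -2.78, -2.80 and -2.43 in F1 vehicle uteri, against -4.19, -3.15 and -3.69 in B6 E2 uteri and 0.67, -1.20 and -0.81 in B6 vehicle uteri. The B6 vehicle arrays were the highest, replicate 1 above all, and the list fell after estradiol in both strains. None of the 9 was called by limma (3 at an unadjusted p under 0.05, against 3953 of all 21861 genes), and the median difference of 1.19 was 0.55 without B6 vehicle replicate 1. Albumin (Alb), the main plasma protein, was at -1.99, -2.94 and -1.97 in F1 E2 uteri and -0.12, -0.10 and 0.27 in F1 vehicle uteri, against -1.22, -0.04 and -0.70 in B6 E2 uteri and 3.88, 1.96 and 2.44 in B6 vehicle uteri.

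Several called genes outside that list are known from liver and had their highest mean level in B6 vehicle uteri. A high B6 vehicle level raises the difference by which these genes were chosen, so this trait is not a separate result. Cyp2c39, a cytochrome P450, and Cpn2, a carboxypeptidase N subunit, were well above background on all 3 B6 vehicle arrays and on 0 of the other 9. Among the 4 groups this pair was thus measured only in the group where it was high. In B6, Cyp2c39 was at least 1.63-fold lower after estradiol than in vehicle uteri, and Cpn2 at least 5.02-fold. The fitted differences were 2.96 for Cyp2c39, 3.02 for Cpn2, 2.80 for the carboxylesterase Ces1g, 3.21 for C-reactive protein (Crp), 4.52 for Smlr1 and 1.95 for the histidine-degrading enzyme Uroc1. The added plain subtraction gave 0.14 for Cyp2c39, 0.53 for Cpn2, 0.30 for Ces1g, 0.23 for Crp, 0.49 for Smlr1 and 0.60 for Uroc1. None of these was called (limma adjusted p = 0.15 to 0.60), and under normexp correction all but Uroc1 were negative. The fitted sizes thus depend on how dim signals are handled. Without B6 vehicle replicate 1 the fitted differences were 2.44 for Cyp2c39, 2.39 for Cpn2, 2.32 for Ces1g, 3.53 for Crp, 3.96 for Smlr1 and 1.49 for Uroc1. The calls of Cpn2 (limma adjusted p = 0.074) and Smlr1 (limma adjusted p = 0.072) were then lost. The hepcidin gene Hamp2, picked after its values were seen, went the same way, at 2.02 with that array and 1.52 without it, when its call was lost (limma adjusted p = 0.0674). The part of the liver transcripts' levels in these differences was not tested.

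All 24 interferon-induced genes of that list had a positive difference (all but 1 under normexp correction or median centring), with a median of 1.04, but none was called by limma (11 at an unadjusted p under 0.05, against 3953 of all 21861 genes). The mean level was 1.11, 0.99 and 0.82 in F1 E2 uteri and -0.21, -0.13 and -0.33 in F1 vehicle uteri, against 1.04, 0.79 and 0.99 in B6 E2 uteri and 1.97, 0.05 and 0.02 in B6 vehicle uteri. The E2 groups overlapped, and B6 vehicle replicate 1 stood far above the other vehicle arrays. Without it the median difference was 0.29. The macrophage markers (16 genes, median 0.71, 0.41 without that array), antigen presentation genes (16 genes, median 0.50, 0.06 without it) and complement genes (19 genes, median 0.58, 0.37 without it) moved with it as well, with 0 called by limma in each and 6, 3 and 8 at an unadjusted p under 0.05.

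**Figure D5:**
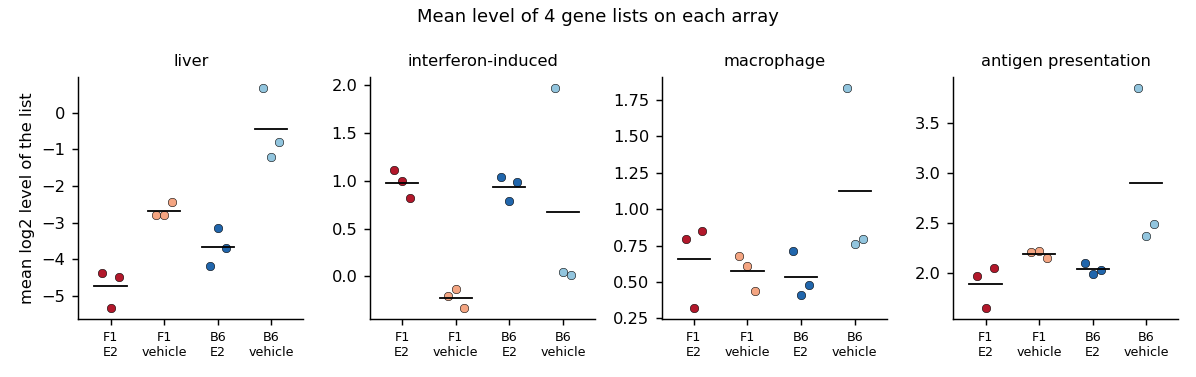
Mean level (log2, 0 is the array's 75th percentile) of the liver, interferon-induced, macrophage and antigen presentation lists on each array, F1 E2, F1 vehicle, B6 E2 and B6 vehicle from left to right, with 1 point per array and a bar at the group mean. B6 vehicle replicate 1 is the highest point in each panel, at 1.97 for the interferon-induced list.

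Markers of luminal epithelium, endometrial stroma and myometrium shifted little, and glandular markers shifted further. The median difference was -0.10 for 15 luminal epithelium markers, -0.28 for 9 glandular epithelium markers, -0.08 for 12 endometrial stroma markers and 0.08 for 14 myometrium markers. The luminal median turned positive without scaling, and the stromal one without scaling and under normexp correction. The median of all genes was 0.08 without scaling and -0.20 under normexp correction. Sox9 among the glandular markers was the 1 gene called in these lists, against 2.23% of all genes. Among other marker lists, the median was 0.63 for 8 mesothelium, 0.36 for 9 mast cell and -0.53 for 11 adipocyte genes, with 0 called in each. The mast cell median was -0.02 under normexp correction, and the adipocyte median was 0.02 without F1 vehicle replicate 1. NK cell markers fell after estradiol in both strains, 10 of 11 in F1 and 11 of 11 in B6. Their mean level in vehicle uteri was -3.35, -3.16 and -3.002 in F1 against -0.96, -2.17 and -2.10 in B6, and 0 had a called difference in response (limma, 2 at an unadjusted p under 0.05, against 3953 of all 21861 genes). Ins2, an insulin gene, and Stmn2, a neuronal stathmin, were single calls in the pancreas and neural lists of 8 and 10 measured genes, at -0.51 and 0.51. Ptprt, a receptor tyrosine phosphatase, fell by 2.68 in F1, where 1 of 3 E2 arrays was well above background, and by 1.48 in B6.

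Called genes with a known symbol, 413 of the 16731 tested, were spread over the genome. Their share of the tested genes was highest on chromosome 3, at 3.21%, and lowest on chromosome 18, at 0.499% (2 of 401). On chromosome 7, which holds the kallikrein cluster, it was 2.903% (40 of 1378, among them the 8 called Klk1-type genes).

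The differences between F1 and B6 were fewer than those between the C3H parent and B6. Between C3H and B6 4160 genes had a called difference in the 24 h response (19.0%, 5.67% with the C3H response more positive and 13.4% with it more negative), and between F1 and C3H 835 had one (3.82%, 3.09% more positive and 0.727% more negative in F1), each on 3 arrays per group. These comparisons share arrays with the one described here, so their counts are not independent of it. In C3H itself 67.3% of genes responded, 26.9% rising and 40.4% falling. Chia1 rose by 3.08 in F1 and by 2.95 in C3H, with a B6 change of 0.36 that did not pass, and Sprr2f rose by 5.78 in F1 and by 5.81 in C3H, against 8.40 in B6. Hbegf fell by 1.76 in F1 and by 1.67 in C3H, against 0.48 in B6. For Speer4d the F1 response of -1.44 lay between those of C3H (-0.91) and B6 (-3.67).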

How the data were processed

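Uterine RNA from 9 groups of 3 samples was hybridised to 27 1-colour arrays, of which the comparison uses 12. Per the labels' protocols, 500 ng RNA was labelled with Cy3, and each hybridisation took 1.65 µg cRNA and lasted 17 h. Spot intensity in the deposited scanner files is linear. Per the file headers, Feature Extraction 9.5.3.1 subtracted background and spatial trend to give the processed intensity, and gave low spots a surrogate (4634 to 6411 of them on the 12 arrays). Scaling between arrays was not part of it. Agilent Feature Extraction 9.5 is named in the submitters' processing notes. In 27 of 27 columns the authors' deposited series-wide values equalled the processed intensity.

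Control spots (1639 of 45018) and outlier spots (52 to 89 per array) were dropped, saturated spots (0 to 2) were kept, and repeated spots were averaged. The deposited intensity was taken to log2, and each array's 75th percentile was subtracted. Probes were kept when every array of some group showed them well above background, and the brightest kept probe stood for its gene. Of 41174 probes, RefSeq tables named 23082 by accession, 6582 by symbol and 3073 by synonym, and 8437 kept the file's name. Of 21861 genes, 16731 had a known symbol and 7494 more than 1 probe. A linear model with a mean for each of 9 groups was fitted in limma 3.58.1 (R 4.3.3, statmod 1.5.0, version 1.17.8 of data.table) to all arrays, leaving 18 residual degrees of freedom with 1.95 prior ones, and was tested on simulated data. SE is limma's. Further steps ran in Python 3.11.15 with pandas 2.3.3, numpy 2.4.6 and matplotlib 3.10.9. The number of arrays limits the precision.

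Genes were named by rule. From called genes with a known symbol, measured in all 4 groups and called in all 12 fits that leave out 1 array, these were the 10 most positive and 10 most negative. Added were the 5 most positive and 5 most negative of those not measured in every group, up to 4 in each direction with opposite responses, up to 4 called genes of each list, and fixed check genes. Of the genes so chosen, 2 are not reported here. The members, lists (47, with 796 of 855 entries measured) and tests were chosen with earlier results of these data known. Samples of the same replicate number had deviations correlated at -0.14 to 0.23 and were not treated as pairs. Alternatives covered background, scaling, filter, probe choice, slide, replicate block and each array left out; 2 background corrections were added after seeing the data.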

Additional observations from a re-analysis of the deposited data

Results flagged for a closer look

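The response to estradiol differed between F1 and B6 by the limma test of that difference for 488 genes, which is what brings each of the genes here to attention. The values are the F1 response minus the B6 response, in log2 units, 3 arrays per group.

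The F1 response was the more negative, by size of the difference, for Klk1b24 -5.76, Klk1b3 -5.72, Klk1b26 -5.06, Klk1b21 -4.73, Klk1 -4.62, Klk1b27 -4.15, Klk1b8 -3.80, Klk1b4 -2.65, Sprr2f -2.61, Reg3b -2.61, Myh7 -1.82, Dnah11 -1.72 and Esm1 -1.68. Smaller negative differences were Hbegf -1.28, Ptprt -1.20, Sox9 -0.93, Apln -0.88, Gnl3 -0.61, Klf4 -0.60, Ptges -0.58, Ins2 -0.51, Hspd1 -0.50, Nop56 -0.49, Hspb1 -0.44, Hspe1 -0.43 and Clock -0.40.

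The F1 response was the more positive for Smlr1 4.52, Jhy 3.40, Crp 3.21, Cpn2 3.02, Cyp2c39 2.96, Ces1g 2.80, Chia1 2.73, Serpina1b 2.58, Ifi44l 2.46, Serpina1e 2.41, Krt20 2.27 and Speer4d 2.23. Smaller positive differences were Il20ra 2.17, Uroc1 1.95, Speer5-ps1 1.80, Bub1b 1.49, Dmbt1 1.12, Thbs1 0.75, Sts 0.71, Igfbp3 0.61, Gpx3 0.59 and Stmn2 0.51.

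Causes of these differences were not tested.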

How the results depend on the processing

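Of 488 genes with a called difference, normexp correction left 1 (513 at an unadjusted limma p under 0.05), its added maximum-likelihood version 0 (490 at an unadjusted p under 0.05), no scaling 167, no filter on dim probes 285, the 12 arrays alone 76 and the slide barcode run as a term 131, a term that rests on F1 vehicle replicate 3. Leaving out 1 array gave 181 to 544. The replicate block gave 512, and same-numbered samples were not shown to be pairs. Other alternatives gave 375 to 706. Normexp and its added version called 7150 and 6997 genes in the F1 response, 7006 and 6894 in the B6 response, 100 and 97 in the vehicle level and 177 and 154 in the 24 h level, which also fell to 2712 without scaling and 522 with the barcode run. Leaving out 1 array gave 14028 to 15240 in the F1 response, 14105 to 14886 in the B6 response, 1982 to 2818 in the vehicle level and 2977 to 4673 in the 24 h level. On 5 of the 27 arrays normexp fitted a background mean under -300 intensity units. Among the 12 arrays these were 2, B6 vehicle replicate 2 and F1 vehicle replicate 2. All 27 arrays enter the fitted spread. The part of these fits in the calls lost under normexp was not tested.

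Of 1239 values of the 48 named called genes under alternatives, 851 kept sign and call, 372 kept the sign and lost the call, and 16 changed sign. Under normexp these were Smlr1 -0.10, Jhy -0.22, Crp -0.38, Cpn2 -0.0067, Cyp2c39 -0.42, Ces1g -0.22, Dmbt1 -0.037 and Stmn2 -0.073. Under its added version they were Smlr1 -0.071, Jhy -0.19, Crp -0.35, Cyp2c39 -0.39, Ces1g -0.19, Dmbt1 -0.010 and Stmn2 -0.056, and under the added subtraction Jhy -0.14. Speer4f1, named after its values were seen, was -0.22 and -0.19 under the normexp versions. The cause was not tested. Many of these genes were not well above background in some groups, which limits their values.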
